A study of Drosophila melanogaster with 4 samples.

Results

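The genes described here drive or restrain the cell division cycle, and were measured in wing imaginal discs of Drosophila melanogaster as 10 of the 15222 gene features counted in each library. They were chosen by name: the cyclin genes CycD, CycE, CycA, CycB and CycB3, the cyclin-dependent kinase gene Cdk1, the phosphatase gene stg (string), the transcription factor gene E2f1, the kinase inhibitor gene dap (dacapo) and fzr (fizzy-related). Each symbol matched 1 feature, and all 10 passed the filter on low counts that left 7278 genes to be tested. The wing disc is the larval sac of epithelium from which the adult wing and back of the thorax develop. Total RNA was read from discs that had been dissected by hand from wandering larvae of the third instar. The wtsP2 group (strain yw, carrying the wtsP2 allele of warts) and the wild-type group (strain yw) held 2 libraries each. Warts is a kinase of the Hippo pathway that holds the transcriptional coactivator Yorkie in check, and the comparison asked which transcripts differ when the warts gene is mutant. Zygosity, sex, the number of discs per library and whether replicates were separate cultures are not in the labels. The p-values thus rest on a spread between libraries that may be technical alone.

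Cells of the wing disc divide throughout larval life. Cyclin D with Cdk4 and cyclin E with Cdk2 promote growth and entry into S phase, E2f1 activates transcription of S phase genes, and Dacapo inhibits the cyclin E kinase. Entry into mitosis needs cyclins A, B and B3 bound to Cdk1, and String, the Cdc25 phosphatase of the fly, removes inhibitory phosphates from Cdk1. Fizzy-related activates the anaphase-promoting complex (APC/C), a ubiquitin ligase that marks mitotic cyclins for destruction, and holds cells in G1. CycE is widely used as a readout of Yorkie activity in this tissue. Much of the control of these proteins acts on their stability and phosphorylation, which transcript counts do not measure.

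Library totals were 3520970 and 3846682 counts in wtsP2 and 2112468 and 696952 counts in wild type. The limit that a count of 0 allows, 3 counts, was 0.852 and 0.780 CPM (counts per 1000000 counts of the library) in wtsP2 and 1.42 and 4.30 CPM in wild type, for counting error only. Across tested genes, log2 CPM correlated at Pearson r = 0.868 between the wtsP2 libraries and at 0.564 between the wild-type libraries, over genes that are not independent replicates. Of the 7278 tested genes, 252 had no counts in at least 1 wtsP2 library and 2624 in at least 1 wild-type library. The targeted gene wts had 48 and 24 counts in wtsP2 and 46 and 0 in wild type, which is too few to check the genotype labels. The wing genes vg (437 and 348 counts in wtsP2, 481 and 151 in wild type), nub (2101 and 2727 in wtsP2, 813 and 350 in wild type) and sd (1590 and 1532 in wtsP2, 1455 and 334 in wild type) were counted in every library, while of the same list of 11 matched genes Dll (353 and 323 in wtsP2, 78 and 0 in wild type) and dpp (245 and 203 in wtsP2, 293 and 1 in wild type) were at 0 or 1 count in the second wild-type library. Summed markers of several other tissues differed between the groups. Neuron and glia markers (118 and 73.3 CPM in wtsP2, 88.1 and 61.7 in wild type) overlapped, as did those of the germ line. Gut and Malpighian tubule markers came to 0.28 and 13.5 CPM in wtsP2 and to 111 and 237 CPM in wild type. Eye disc markers came to 67.9 and 46.3 CPM in wtsP2 and to 115.5 and 264 CPM in wild type. Those of the larval fat body, whose cells replicate DNA without dividing, came to 1398 and 1545 CPM over 8 of 9 listed genes in wtsP2 and to 19905 and 20465 CPM in wild type. Those of the salivary gland, another tissue with such cells, came to 5.40 and 2.86 CPM over all 8 listed genes in wtsP2 and to 491 and 461 CPM in wild type. Muscle and myoblast markers came to 162 and 147 CPM over 6 of 8 listed genes in wtsP2 and to 250 and 539 CPM in wild type, though the myoblast gene twi had 80 and 79 counts in wtsP2 and 0 and 0 in wild type. Blood cell markers came to 164 and 234 CPM over 9 of 10 listed genes in wtsP2 and to 576 and 778 CPM in wild type, with lz at 0 in all libraries. In CPM, srp, NimC2 and PPO2 were lower in both wtsP2 libraries. Hml (290 and 537 counts in wtsP2, 179 and 150 in wild type) and Pxn (128 and 276 in wtsP2, 162 and 47 in wild type) overlapped between the groups in CPM. Tracheal markers came to 3444 and 3588 CPM over 5 of 6 listed genes in wtsP2 and to 809 and 1103 CPM in wild type. The gene uif had the most counts of them in wtsP2 (4697 and 7196, against 412 and 178 in wild type). The gene trh had few (373 and 414 in wtsP2, 140 and 10 in wild type). Whether the reads of these markers came from trachea was not tested. The part of these tissues in the values below was not tested, and in such bulk samples fewer cells of a type and less RNA per cell cannot be told apart.

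Of the 10 genes, 7 had positive and 3 had negative log2 fold changes (wtsP2 over wild type), with a median of 0.53 against 0.24 for all tested genes. This order was not stable. The medians were 0.417 against 0.775 in limma-voom and 0.759 for both with the replicate number as a block. They were 1.03 against 1.33 without the first wild-type library and 0.265 against 0.282 without the second. The 10 genes were also longer, with a median of 2944 bases against 2096 for all tested genes. None of the 10 passed edgeR's quasi-likelihood test at an adjusted p under 0.05, where 0 of all tested genes passed as higher and 0 as lower (0.0% each). At an unadjusted p under 0.05, 1 of the 10, stg, was higher and 0 were lower, against 9.91% higher and 2.65% lower among all tested genes (721 and 193 genes). DESeq2 and limma-voom also called 0 of the 10, while calling 96 and 123 genes higher (1.30% and 1.69%) and 86 and 27 lower (1.17% and 0.371%). At an unadjusted p under 0.05, both tools had stg as the only one of the 10. The groups did not overlap for 4 of the 10. In 3 (stg, CycB and dap) both wtsP2 values were the higher ones, and in 1 (Cdk1) the lower ones, against 32.3% and 15.1% of all tested genes. These shares of the 10 genes were near the background. With 2 libraries per group, an exact two-sided permutation test of a single gene cannot give a p below 0.333.

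**Figure D1:**
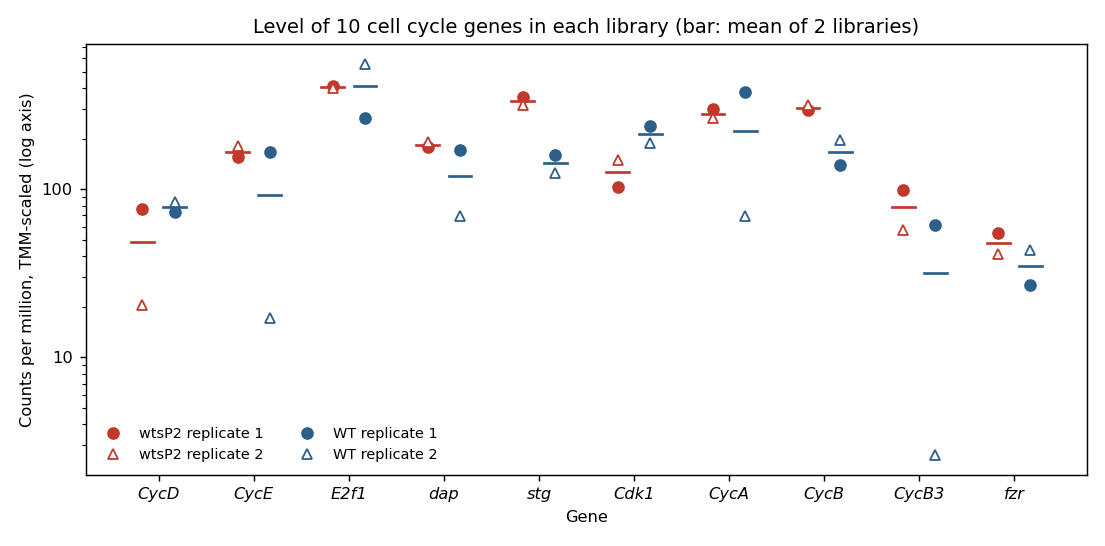
Level of each of the 10 genes in each library, in TMM-scaled CPM (log axis), with wtsP2 libraries to the left of WT libraries and a bar at the mean of 2 libraries. The wtsP2 libraries lie close together for most genes, CycD being the exception, while CycE, CycA and CycB3 are split widely in WT, where replicate 2 is low.

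The string gene had the smallest p-value of the 10. It lies on chromosome 3R (25077540 to 25081502, minus strand, 2 exons; coordinates here are those of the count files, build BDGP5). It had 1235 and 1142 counts in wtsP2, or 354 and 318 CPM after TMM scaling, which adjusts library totals for composition. The wild-type libraries had 330 and 95 counts, or 161 and 125 CPM. The libraries of each group were thus close, and the groups did not overlap. The means were 336 ± 25.2 CPM in wtsP2 and 143 ± 25.5 CPM in wild type (SD, n = 2 each), a log2 fold change of 1.23 ± 0.38 (SE), or 2.35-fold (edgeR unadjusted p = 0.0209, adjusted p = 0.368). The fold change stayed between 1.10 and 1.44 with any 1 library left out. It passed without the first wild-type library (log2 fold change 1.44, edgeR adjusted p = 0.00903) and without the second (1.10, adjusted p = 0.0489), and missed without either wtsP2 library (adjusted p = 0.9999 for both). In the fit lacking the first wild-type library the median of all genes was itself 1.33, so that stg lay 0.11 above it, against 0.99 with every library in.

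Cdk1, the kinase whose inhibitory phosphates String removes, had its values on the other side. The gene (chromosome 2L, 10384739 to 10386263, minus strand, 3 exons) had 358 and 538 counts in wtsP2, or 103 and 150 CPM. There were 489 and 143 counts in wild type, or 238 and 188 CPM. All of its wild-type values lay above its wtsP2 values. The log2 fold change was -0.75 ± 0.44 (edgeR adjusted p = 0.653). Under every alternative tried it was negative, from -1.04 to -0.47, both ends of this range coming from leaving out a wtsP2 library. A kept sign was not particular to Cdk1. CycD was also negative under every alternative, and CycE, CycB, CycB3, stg and dap were positive under every one. Ratios of counts within a library do not depend on scaling, and were computed for a few gene pairs chosen after their values were seen. There were 3.45 and 2.12 counts of stg per count of Cdk1 in wtsP2, against 0.675 and 0.664 in wild type. For CycB, the ratio to Cdk1 was 2.88 and 2.11 in wtsP2 and 0.585 and 1.04 in wild type. Both ratios were higher in each wtsP2 library than in either wild-type library. This had to follow, since stg and CycB lay above and Cdk1 below in both wtsP2 libraries, so the ratios add no separate evidence. Ratios of CycE to dap, E2f1 and CycD and of CycB to CycA overlapped between the groups, and that of stg to E2f1 did not. For CycA the ratio to Cdk1 was 2.90 and 1.77 in wtsP2 against 1.58 and 0.371 in wild type, a narrow gap. Cdk1 is also the shortest of the 10 genes (1080 bases), and over all tested genes longer ones had higher log2 fold changes. Their median was -0.20 in the shortest and 0.72 in the longest of 10 length classes. In the class of Cdk1 the median was -0.04 and in that of stg (3050 bases) it was 0.32. The part of gene length in the values of single genes was not tested.

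**Figure D2:**
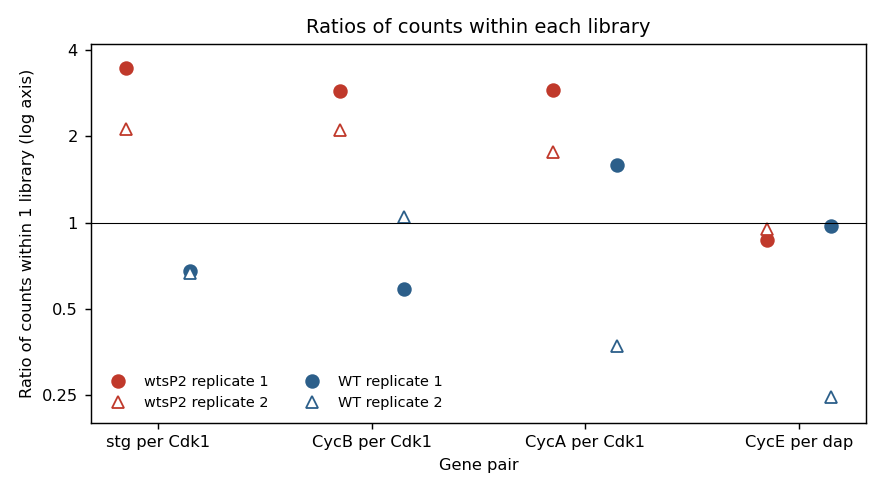
Ratio of the counts of 2 genes within each library (log axis, line at 1), wtsP2 to the left of WT. The stg to Cdk1 ratio is 3.45 and 2.12 in wtsP2 and 0.675 and 0.664 in WT, while the CycE to dap ratio overlaps between the groups.

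The 3 mitotic cyclin genes, which supply the partners of Cdk1, did not share one pattern. CycB (chromosome 2R, 18691026 to 18694490, minus strand, 7 exons) had 1031 and 1135 counts in wtsP2, or 296 and 316 CPM. Counts in wild type were 286 and 149, or 139 and 195 CPM. Its groups did not overlap, and its log2 fold change was 0.87 ± 0.39, or 1.83-fold (edgeR unadjusted p = 0.0721, adjusted p = 0.473). With the second wild-type library left out it passed (1.17, adjusted p = 0.0360), and it was at 0.65 without the first (adjusted p = 0.194); there it lay 0.68 under the median of the tested genes. CycA (chromosome 3L, 11819818 to 11826695, minus strand, 11 exons) had 1040 and 952 counts in wtsP2, or 298 and 265 CPM. The wild-type counts were 775 and 53, or 377 and 69.5 CPM. The wtsP2 values thus lay between the wild-type values. Its log2 fold change of 0.33 ± 0.79 (adjusted p = 0.980) turned negative (-0.38, adjusted p = 0.534) without the second wild-type library and passed as higher without the first (2.02, adjusted p = 0.00118). CycB3 (chromosome 3R, 20694075 to 20696617, minus strand, 1 exon) had 347 and 204 counts in wtsP2, or 99.5 and 56.9 CPM. In wild type it had 126 and 2 counts, or 61.4 and 2.62 CPM. The groups overlapped, since the first wild-type library lay above the second wtsP2 library. Its log2 fold change had the largest value of the 10 and the widest error, 1.27 ± 1.48 (adjusted p = 0.936). Leaving out the second wild-type library gave 0.39, and leaving out the first gave 4.88 (adjusted p = 0.000917) on 2 wild-type counts.

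Entry into S phase gave no separation of the groups by its activators. CycE (chromosome 2L, 15727762 to 15748155, minus strand, 11 exons) had 541 and 645 counts in wtsP2, or 155 and 180 CPM. Wild-type libraries had 344 and 13 counts, or 168 and 17.1 CPM. The first wild-type library thus lay between the wtsP2 libraries and only the second was low. The log2 fold change was 0.84 ± 1.02 (edgeR adjusted p = 0.939). Without the second wild-type library it was 0.04, and without the first it was 3.30 (adjusted p = 0.000221). E2f1 (chromosome 3R, 17446026 to 17486127, minus strand, 11 exons) had 1429 and 1428 counts in wtsP2, or 410 and 398 CPM. In wild type it had 545 and 426 counts, or 265 and 559 CPM. The wtsP2 values agreed closely and lay between the wild-type values. Its log2 fold change of -0.03 ± 0.46 (adjusted p = 0.9986) had no stable sign, being 0.65 without the second wild-type library and -0.46 without the first. CycD (chromosome X, 15800855 to 15803708, minus strand, 8 exons) had 267 and 74 counts in wtsP2, or 76.6 and 20.6 CPM. The counts in wild type were 150 and 64, or 73.1 and 84.0 CPM. Here the wtsP2 libraries were the ones that differed, and the first of them lay within the wild-type range. The log2 fold change was -0.69 ± 0.96 (adjusted p = 0.945), -1.89 without the first and -0.03 without the second wtsP2 library.

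The 2 restraining genes had log2 fold changes 0.36 (dap) and 0.21 (fzr) above the median gene in the edgeR fit with every library in. This was not stable. Relative to the median of the same fit, limma-voom gave -0.41 for dap and -0.12 for fzr. The replicate block gave -0.01 for dap and -0.28 for fzr. The cyclin E kinase inhibitor gene dap (chromosome 2R, 5599828 to 5603607, plus strand, 3 exons) had 624 and 682 counts in wtsP2, or 179 and 190 CPM. The wild-type libraries held 353 and 53 counts, or 172 and 69.5 CPM. The groups did not overlap, but the first wild-type library was close to the wtsP2 libraries. The log2 fold change was 0.60 ± 0.57 (edgeR adjusted p = 0.885), 0.14 without the second wild-type library and 1.41 without the first. Relative to the median of the tested genes in the same fit, dap was at -0.14 without the second and 0.08 without the first. The APC/C activator gene fzr (chromosome X, 4561315 to 4573619, minus strand, 6 exons) had 192 and 147 counts in wtsP2, or 55.0 and 40.99 CPM. In wild type it had 55 and 33 counts, or 26.8 and 43.3 CPM, so that the groups overlapped. Its log2 fold change was 0.46 ± 1.12 (adjusted p = 0.980), and it was 0.15 with the first wild-type library left out and 0.88 with the second left out. Relative to the median of all genes in the same fit, these values were -1.18 and 0.60.

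**Figure D3:**
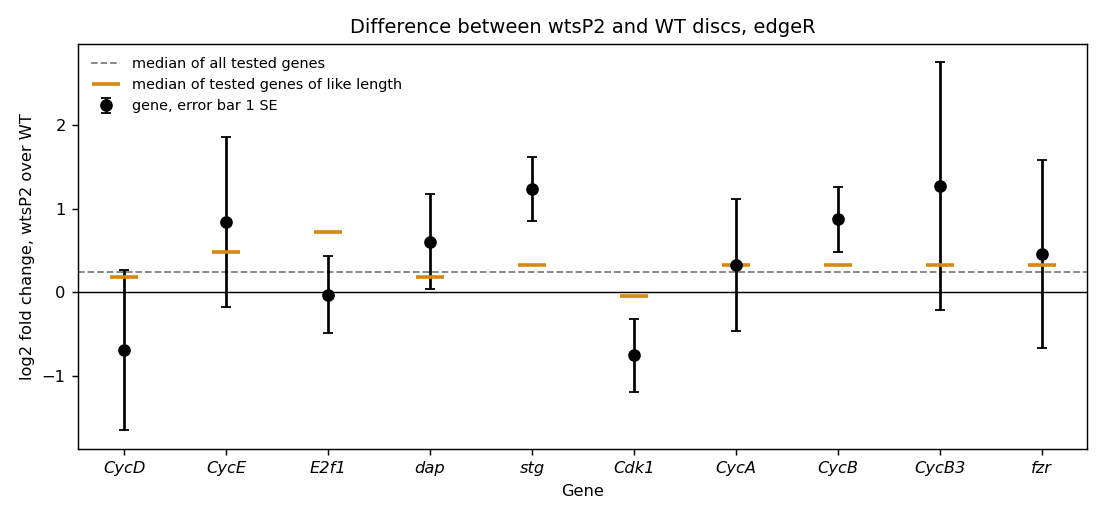
Log2 fold change of each gene (wtsP2 over WT, all 4 libraries) with an error bar of 1 SE, beside the median of all tested genes (dashed line, 0.24) and the median of tested genes in the same of 10 length classes (orange). The intervals of stg and CycB lie above both medians and that of Cdk1 below, and the widest error is that of CycB3.

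The 2 libraries of a group differed by amounts that varied from gene to gene. The higher wtsP2 value was at most 1.75 times the lower for 9 of the 10 genes, CycD (3.71 times) being the exception, against a median of 1.40 over the tested genes with counts in both libraries. In wild type the ratio was 23.4 for CycB3, 9.83 for CycE, 5.43 for CycA 2.47 for dap and 2.105 for E2f1, against a median of 1.89. It was below that median for the other 5, from 1.15 for CycD through 1.27 for Cdk1, 1.29 for stg and 1.40 for CycB to 1.62 for fzr. The genes CycB3, CycE, CycA and dap were low in the second wild-type library. Scaled by library totals, the first wild-type library predicted 113.5 CycE counts in the second, where 13 were found (exact 95% Poisson interval 6.92 to 22.2). It predicted 256 CycA counts, where 53 were found (39.7 to 69.3), and 41.6 CycB3 counts, where 2 were found (0.24 to 7.22). These intervals cover counting error only, and not the difference between separate samples. E2f1 went the other way, with 426 counts (386.5 to 468) against 180 predicted, as did CycB with 149 (126 to 175) against 94.4. So did fzr, with 33 (22.7 to 46.3) against 18.1. The second wild-type library was therefore not low for all 10 genes. With the first wild-type library left out, 5 of the 10 passed as higher (CycE, CycA, CycB3, stg and dap), in a fit where 31.5% of all tested genes did, and without the second 2 passed as higher (stg and CycB), where 12.3% did. Only stg was among both. With 1 wild-type library left, the fits take its variation from the wtsP2 libraries. Lower calls were 0 of the 10 in both, against 8.53% of all tested genes without the first and 5.67% without the second. With the first or second wtsP2 library left out, 0 of the 10 passed, where 0.128% and 0.0386% of all tested genes passed as higher and 0.179% and 0.193% as lower.

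**Figure D4:**
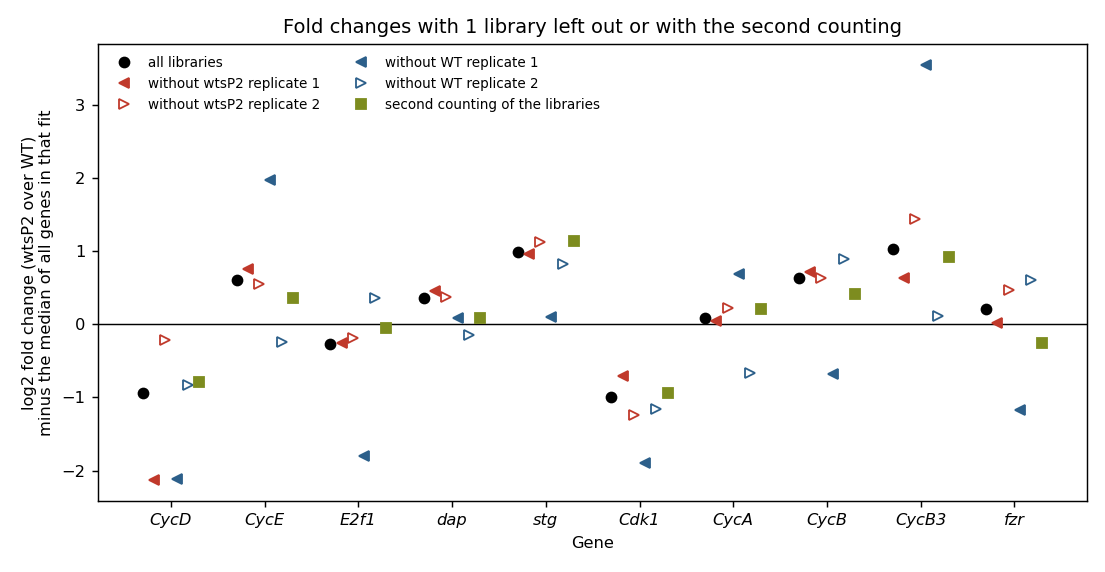
Log2 fold change of each gene (wtsP2 over WT) minus the median of all genes in the same fit, with all libraries, with each library left out, and with the second counting of the libraries. Cdk1 and CycD are below 0 and stg and CycB3 above 0 in all 6 fits. Of these, stg is at 0.11 without WT replicate 1 and CycB3 at 0.107 without WT replicate 2. The values of CycE, CycB3 and CycA without WT replicate 1 lie far from those without WT replicate 2.

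Per gene length, Cdk1 had the highest mean level of the 10 in both groups. On the authors' RPKM scale, which divides reads by gene length and library size, it averaged 113 ± 25.6 in wtsP2 and 205 ± 17.6 in wild type (SD, n = 2 each). In wtsP2 it was followed by stg (108 ± 12.4), CycB (95.1 ± 0.74), CycA (89.7 ± 10.97), dap (75.8 ± 0.20) and E2f1 (71.8 ± 4.36). Single library values overlapped between Cdk1 and stg and between CycB and CycA, and not between the other neighbours. CycE (33.5 ± 2.15), CycB3 (30.2 ± 12.8), CycD (19.7 ± 16.5) and fzr (16.6 ± 4.09) formed a lower set, and here each gene's values overlapped those of its neighbours. In wild type the order after Cdk1 was E2f1 (80.3 ± 46.1), CycA (73.2 ± 68.0), CycB (56.5 ± 17.9), dap (52.0 ± 27.6), stg (48.6 ± 4.72), CycD (33.7 ± 6.07), CycE (18.9 ± 21.3), fzr (13.1 ± 5.37) and CycB3 (12.5 ± 16.02). Library values overlapped between all neighbours in this order except Cdk1 and E2f1, and stg and CycD. The mean level of stg was thus the second of the 10 in wtsP2 and the sixth in wild type. Within single libraries its rank was 1 and 2 in wtsP2 and 4 and 4 in wild type. The sixth place therefore held for the wild-type means only. The median RPKM of all tested genes was 24.2 and 22.6 in the wtsP2 libraries and 21.9 and 17.5 in the wild-type libraries.

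A second counting of the same libraries stood behind the authors' deposited table of group means. Each mean split into 2 whole counts, given here in no order tied to the replicate numbers. For CycE these were 918 and 875 counts in wtsP2 and 446 and 99 in wild type. The sums were 1.51 times those of the library files in wtsP2 and 1.53 times in wild type, against a median of 1.05 and 1.025 over genes with at least 50 counts in the group. For fzr (207 and 278 counts in wtsP2, 96 and 76 in wild type) the sums were 1.43 and 1.955 times those of the files, and for E2f1 (1837 and 1973 in wtsP2, 773 and 472 in wild type) 1.33 and 1.28 times. Such ratios above 1.5 were found for 7.95% of genes in wtsP2 and 9.645% in wild type. Which reads only the second counting took was not tested. In edgeR on these counts, CycE was at a log2 fold change of 0.51 ± 0.43 (adjusted p = 0.828), against 0.84 ± 1.02 from the files, and fzr turned to -0.10 ± 0.78 (adjusted p = 0.992). Divided by their size factors, CycE was at 498 and 497 in wtsP2 and 473 and 264 in wild type, so that the groups no longer overlapped. The wild-type values of CycE were closer together than in the library files. Those of CycA (853 and 141) and CycB3 (167 and 5.3) stayed far apart. The groups of dap then overlapped, at 409 and 355 in wtsP2 and 395 and 290 in wild type. The genes stg, CycB and Cdk1 kept groups without overlap. The stg fold change was 1.28 ± 0.38 (unadjusted p = 0.0147, adjusted p = 0.358), and its ratio to Cdk1 was 2.19 and 3.64 in wtsP2 and 0.647 and 0.671 in wild type. In the authors' deposited table the fold of the wtsP2 mean over the wild-type mean was 2.31 for stg, 1.98 for CycB3, 1.40 for CycB, 1.35 for CycE, 1.21 for CycA, 1.12 for dap, 1.02 for E2f1, 0.887 for fzr, 0.611 for CycD and 0.549 for Cdk1.

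Other genes of the cycle were read from 5 lists of 79 symbols, of which 75 matched a feature and 72 were tested. In edgeR 0 of the 72 passed in either direction, and 2 were higher and 1 lower at an unadjusted p under 0.05, against 9.91% and 2.65% of all tested genes. Their median log2 fold change was 0.36, against 0.24 for all tested genes, and 20 had groups above and 7 below without overlap, against 32.3% and 15.1% of all tested genes.

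Of 18 tested genes of G1 and S entry, 11 were positive around a median of 0.12, with groups above for 1 and below for 1 without overlap. Cks85A, which encodes a small Cdk-binding subunit, had 69 and 37 counts in wtsP2 and 0 and 0 in wild type. Against a floor of 3 counts over the wild-type group it was at least 13.5-fold higher (edgeR unadjusted p = 0.0309, adjusted p = 0.368). This bound covers counting error only, and not the spread between libraries. CycG, an atypical cyclin gene with the highest RPKM of the list, had 6015 and 6860 counts in wtsP2 and 1773 and 1407 in wild type, at 0.43 ± 0.46. The Roc1a gene, for the RING subunit of the SCF ubiquitin ligase, was at 0.01 ± 0.43, and mip130, for a subunit of a Myb and E2f repressor complex, at -0.82 ± 0.58. Of 17 genes of G2 and mitotic entry, 8 were positive around a median of -0.14. The endosulfine gene endos, whose product restrains a phosphatase that opposes Cdk1, had 805 and 458 counts in wtsP2 and 940 and 270 in wild type. Its log2 fold change was -1.18 ± 0.45 (unadjusted p = 0.0460, adjusted p = 0.381), and its groups did not overlap. The mitotic kinase gene polo (1352 and 965 counts in wtsP2, 1128 and 431 in wild type) was at -0.76 ± 0.37 (adjusted p = 0.531). The Chk1 checkpoint kinase gene grp was at -0.50 ± 0.34 (adjusted p = 0.752). In this list 5 genes had groups above and 3 below without overlap, and those below were endos, polo and grp. The largest positive values, named after they were seen, were those of the Cdk1-inhibiting kinase genes Myt1 (2.32 ± 2.40) and Wee1 (1.61 ± 1.80) and the checkpoint kinase genes lok (1.64 ± 1.87) and mei-41 (1.62 ± 1.85). All 4 had 0 counts in the second wild-type library.

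Of 16 tested E2F targets and S phase genes, 12 were positive around a median of 0.58, and 8 had wtsP2 libraries above and 2 below both wild-type libraries, against 32.3% and 15.1% of all tested genes. Mcm2, for a subunit of the replicative helicase, had 744 and 977 counts in wtsP2 and 196 and 37 in wild type, at 1.74 ± 0.52 (edgeR unadjusted p = 0.0193, adjusted p = 0.368). PCNA, the sliding clamp gene and a known E2f1 target, had 1054 and 738 counts in wtsP2 and 400 and 58 in wild type, at 0.90 ± 0.58 (adjusted p = 0.727). PolA1, for the catalytic subunit of the priming polymerase, was at 0.98 ± 0.54, and RnrS, for the small subunit of ribonucleotide reductase, at -0.12 ± 0.36. The origin gene Orc6 had 32 and 0 counts in wtsP2 and 111 and 66 in wild type, at -3.92 ± 2.30. The genes of this list thus went both ways, and none passed over all genes. Of 11 tested APC/C genes, 8 were positive around a median of 0.58, with groups above for 2 and below for 1. The mitotic activator gene fzy had 466 and 381 counts in wtsP2 and 274 and 20 in wild type, at 0.58 ± 0.87, and shtd, for the largest subunit, was at 0.43 ± 0.45. The subunit genes APC4 (3.97 ± 2.40) and ida (2.81 ± 2.08) had 0 counts in the second wild-type library, and Cdc23 was at -1.04 ± 0.78. Of 10 tested genes for other cyclins and cyclin-dependent kinases, 7 were positive around a median of 0.40, with groups above for 4 and below for 0. The 3 with the smallest p-values, Eip63E (3.19 ± 1.65), Cdk9 (3.86 ± 2.53) and its partner gene CycT (2.87 ± 1.91), all had 0 counts in the second wild-type library. The transcriptional cyclin gene CycK was at -0.27 ± 0.49 and the kinase gene Pitslre at 0.59 ± 0.46.

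**Figure D5:**
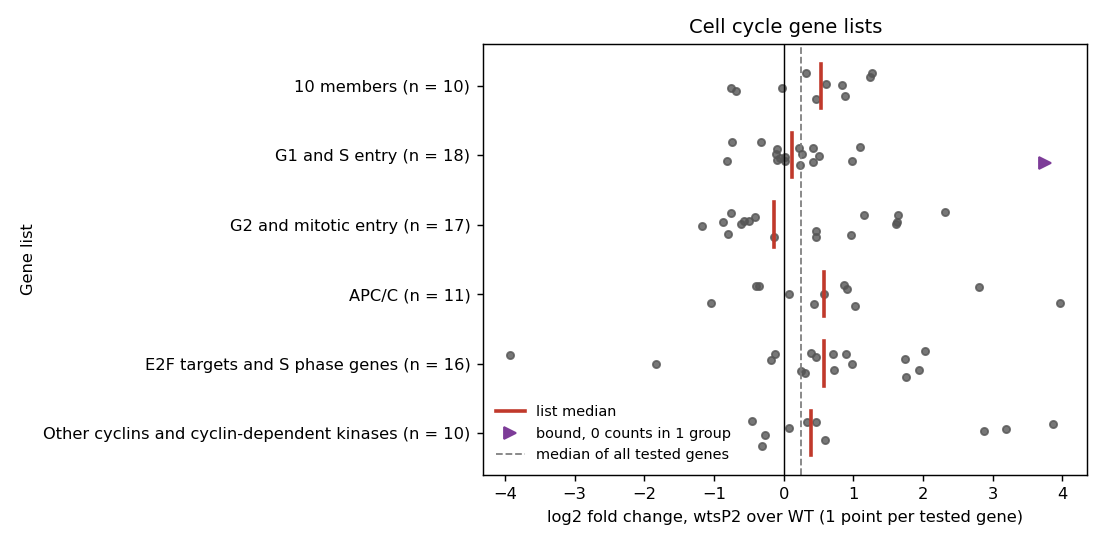
Log2 fold change (wtsP2 over WT) of each tested gene of the 10 members and of 5 cell cycle gene lists, with list medians (red) and the median of all tested genes (dashed, 0.24). The triangle marks Cks85A, at 0 counts in WT, at its bound from 3 counts. List medians run from -0.14 to 0.58.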

How the data were processed

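The authors deposited 1 file per library (2 wtsP2, 2 WT) with raw counts of 15222 gene features, the gene length and, per the file headers, RPKM made from these counts, and the number of exons with over 10 reads. A table of the series holds, per the file headers, the mean signal of each group, as counts divided by DESeq size factors, and the authors' fold ratio of the wtsP2 to the wild-type mean. The submitters' processing notes name HTSeq and DESeq, with no versions, and the builds BDGP5 and dm3, and the labels' protocols name a SOLiD total RNA kit. For the aligner, the strand setting and the handling of shared reads, nothing is given in the sources used here. No exon of the 10 genes overlapped another counted gene in the BDGP6 annotation, while antisense or long noncoding RNAs without a count overlap CycE and E2f1. Reads of these cannot be told apart from the genes' own unless strand was used.

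The test was that of edgeR 4.0.16 under R 4.3.3 (filterByExpr, TMM, robust quasi-likelihood F test, Benjamini-Hochberg over all 7278 tested genes, threshold 0.05). The SE is the size of the log2 fold change divided by the root of F. Depth ran from 696952 to 3846682 counts. Alternatives were other scalings and filters, DESeq2 1.42.0, limma-voom (limma 3.58.1), the replicate number as a block and each library left out. Counts recovered from the authors' means (99.9% of wild-type and 99.3% of wtsP2 means above 0 split in 1 way at a tolerance of 1e-09) and thinned libraries were added after seeing the data. The fit was tested on simulated counts. At the spread fitted to the data, it called 0% of genes changed 2-fold, 10.4% changed 4-fold and 45.5% changed 8-fold, with 5 false calls. The absence of calls among the 10 genes thus does not exclude changes of 2-fold, nor of 4-fold or 8-fold. The 10 genes and all lists were chosen with earlier results of these data known. From each list the text names the 3 tested genes with the smallest p and the 2 with the highest mean RPKM. Outside this rule it also names Myt1, Wee1, lok and mei-41, picked after their values were seen.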

Additional observations from a re-analysis of the deposited data

How the results depend on the processing

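Of 140 log2 fold changes of the 10 genes under alternatives, 126 kept their sign and their side of the threshold, 7 newly passed and 7 changed sign. The 7 that newly passed all came from leaving out a wild-type library. CycA ran from -0.38 (without WT replicate 2) to 2.02 with 1 library left out, and E2f1 from -0.46 to 0.65, with 0.0009 without wtsP2 replicate 2. E2f1 turned to 0.17 in limma-voom, 0.069 with the replicate block and 0.10 with the recovered counts, and fzr to -0.10 with the recovered counts. The cause was not tested. The fold changes of stg ran from 1.10 to 1.44, of CycB from 0.56 to 1.17 and of Cdk1 from -1.04 to -0.47. Leaving out 1 library, 0 to 5 of the 10 genes passed as higher and 0 as lower.

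Over all genes, 0 higher and 0 lower calls in edgeR became 21 and 16 without a filter, 96 and 86 in DESeq2, 123 and 27 in limma-voom, 69 and 38 with the replicate block, and 3 to 2514 and 14 to 681 with 1 library left out. Other scalings, the stricter filter, recovered counts and thinned libraries gave 0 and 0. Same-numbered libraries did not deviate together across genes (r = 0.008). With 2 libraries per group this is only 1 correlation, so it cannot exclude that the replicate numbers pair the libraries. The block called 0 of the 10 genes. Depth ran from 696952 counts in the second wild-type library to 3846682 in the second wtsP2 library, and thinning every library to the smallest total left the calls at 0 and 0.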

Other observations

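The files also count the exons with over 10 reads. For CycE these were 6 and 7 of 11 exons in wtsP2 and 4 and 1 in wild type, and for CycA 9 and 9 of 11 in wtsP2 and 9 and 2 in wild type. CycD had 7 and 3 of 8 exons in wtsP2 and 2 and 4 in wild type. Cdk1, the shortest of the genes, had all 3 exons over 10 reads in every library. The low CycE and CycA counts of the second wild-type library went with 1 and 2 such exons. These numbers follow depth as well as level.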
